A study of Mus musculus with 8 samples.

Results

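The 3 genes described here, Nfatc4, Mmgt2 and Rnf157, held the windows with some of the lowest methylation in YAP KD relative to CTR KD cells after 4 days of differentiation. Methylation of cytosines in CpG dinucleotides was measured by bisulphite sequencing of captured regions in mouse embryonic stem cells (ESCs) of the E14Tg2a line. Cells received a negative control siRNA (CTR KD) or siRNAs against YAP (YAP KD) by transient transfection. They were taken undifferentiated (T0) or after 4 days of differentiation toward neuroectoderm (T4), with 2 samples in each of the 4 groups. All groups were of the same line and all were transfected, and the study describes YAP as back at its usual level by T4, so YAP KD at T4 means an earlier reduction of YAP. The members are all windows of 250 bp whose centre lay in the body of one of these genes or within 5 kb of it on the mm9 build, which is at chr14:56443632-56452780 for Nfatc4 (plus strand), chr11:62462166-62479856 for Mmgt2 (plus strand) and chr11:116197667-116274346 for Rnf157 (minus strand). They are 15 of the 54235 windows in the authors' deposited tables, 4 at Nfatc4, 2 at Mmgt2 and 9 at Rnf157. The tables hold no expression values, so the cell identity at T0 and T4 could not be checked against marker genes. They also hold no value per sample, so p-values compare these libraries.

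DNA methylation is written on unmethylated CpGs by the de novo methyltransferases when stem cells leave the pluripotent state, and it is lost where it is not copied at replication or is removed actively. The bodies of many transcribed genes are methylated, unlike most CpG-rich promoters, and bisulphite does not separate methylated from hydroxymethylated cytosine. Nfatc4 belongs to the NFAT transcription factors, which the phosphatase calcineurin sends to the nucleus when calcium rises, and it is used in neurons, heart and blood vessels. Mmgt2 is a membrane magnesium transporter and a close relative of Mmgt1, which is also a subunit of the endoplasmic reticulum (ER) membrane complex. Rnf157 is a RING-type E3 ubiquitin ligase of the brain that has been tied to neuronal survival and dendrite growth in rodent neurons.

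The leading window of each gene, the one with the lowest YAP KD minus CTR KD difference at T4, lay in a coding exon. Their sequences on the gene's strand are shown because these are the stretches whose methylation changed, with each CpG in capitals. The Nfatc4 window is chr14:56448626-56448875 (mm9, plus strand), the Mmgt2 window is chr11:62478501-62478750 (plus strand), of which the coding part to 62478698 is printed, and the Rnf157 window is chr11:116215876-116216125 (minus strand).
Nfatc4: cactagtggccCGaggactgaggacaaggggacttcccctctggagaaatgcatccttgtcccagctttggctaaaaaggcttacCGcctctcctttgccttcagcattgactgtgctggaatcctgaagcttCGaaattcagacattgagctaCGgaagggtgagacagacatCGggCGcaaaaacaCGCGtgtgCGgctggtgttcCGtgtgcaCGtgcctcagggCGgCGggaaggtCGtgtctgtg
Mmgt2: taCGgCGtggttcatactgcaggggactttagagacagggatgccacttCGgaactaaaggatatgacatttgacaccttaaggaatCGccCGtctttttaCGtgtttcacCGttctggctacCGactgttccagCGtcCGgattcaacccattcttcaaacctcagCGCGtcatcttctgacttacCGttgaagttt
Rnf157: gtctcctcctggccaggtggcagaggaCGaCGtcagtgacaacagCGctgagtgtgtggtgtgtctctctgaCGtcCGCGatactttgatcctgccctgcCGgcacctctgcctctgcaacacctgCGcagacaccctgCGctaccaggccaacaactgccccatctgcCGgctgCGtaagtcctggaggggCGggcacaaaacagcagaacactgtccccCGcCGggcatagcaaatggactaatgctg

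The Nfatc4 window held 14 CpGs, of which 12 lay in the coding part of exon 5 of 10, and it covered codons 520 to 568 of 901, a stretch that belongs to the DNA-binding Rel homology region. The Mmgt2 window covered codons 58 to 123 of 123. The whole Mmgt2 coding sequence sits in the last of 2 exons, so this exon is both the end of the gene and its entire reading frame. The Rnf157 window contained all 160 coding bases of exon 10 of 19, codons 265 to 318, with 10 of its 14 CpGs. A search of the Rnf157 reading frame for the cysteine and histidine spacing of a RING finger found 1 match, at codons 277 to 315, so the window spans the whole exon stretch that encodes it. The 3 windows held 14, 15 and 14 CpGs, close to the median of 16 over all windows and of 16 over the 5103 coding exon windows more than 1 kb from a start site. Each word of 31 bases from the Nfatc4 and Mmgt2 windows occurred at 1 place in the genome, and those of the Rnf157 window had a median of 1 copy and a maximum of 2.

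The genes were picked by the T4 comparison of YAP KD with CTR KD cells, so its values describe the choice and no test is drawn from them. At Nfatc4 the leading window was lower in YAP KD cells by a difference of -21.5 points in the authors' deposited table (derived SE 2.86), which was the lowest of all 42803 windows. The overlapping Nfatc4 window, chr14:56448751-56449000, differed by -18.9 points (derived SE 2.49). At Mmgt2 the differences were -20.5 points (derived SE 2.55) and, in the overlapping window chr11:62478376-62478625, -19.7 points (derived SE 2.52). The Rnf157 exon differed by -17.8 points (derived SE 3.48) in a single window. These 5 windows took ranks 1, 2, 3, 4 and 6 from the lowest. Rank 5 was an intron of Mta3 at -17.9 points, just ahead of the Rnf157 window, and rank 7 was a coding exon window of 1700061G19Rik at -17.3 points. The derived SE is the size of a difference over the normal deviate that its methylKit p-value corresponds to, and it covers only the error behind that p-value.

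**Figure D1:**
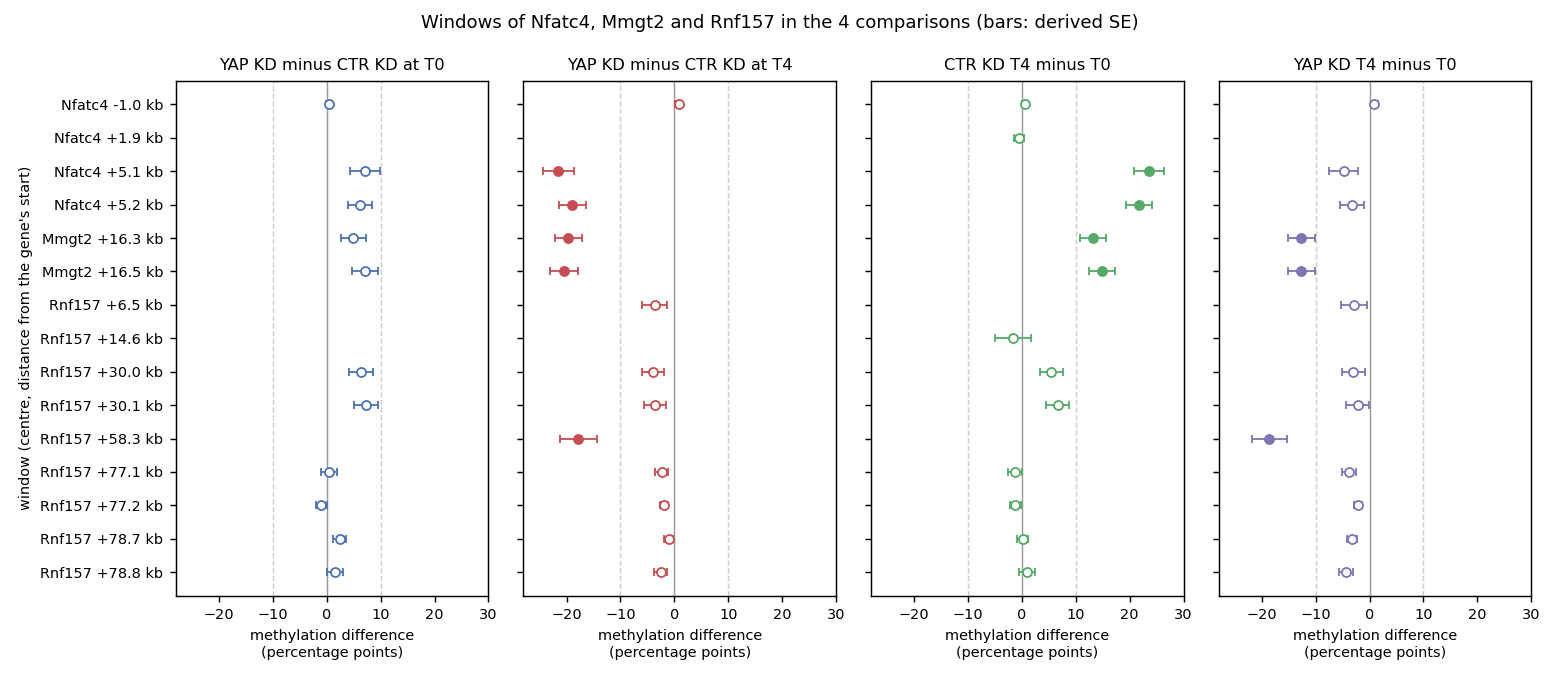
Methylation difference (x axis, percentage points) in each window of Nfatc4, Mmgt2 and Rnf157 (y axis, distance of the window's centre from the gene's start) in the 4 comparisons, with derived SE as bars. Filled symbols passed q at most 0.05 and 10 points (dashed lines), as 5 windows did at T4, 4 in CTR KD differentiation, 3 in YAP KD differentiation and 0 at T0.

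Among the 13 member windows listed at T4, 12 had a difference below 0 and 5 were differentially methylated regions (DMRs), a DMR being a window with q at most 0.05 and an absolute difference over 10 points. Of all windows listed at T4, 0.292% were DMRs with lower and 0.028% with higher methylation in YAP KD cells. Among coding exon windows more than 1 kb from a start site these shares were 0.926% and 0.0751%. The remaining 8 member windows lay between -3.88 and 0.79 points. Among the listed windows, low values thus stood in 1 exon region of each gene. At Mmgt2 only 2 windows were listed, both in that region, and the only other Nfatc4 window listed at T4 lay before the gene. Other windows in the gene body were thus available at Rnf157 alone. The Nfatc4 window at 1.0 kb before the start site differed by 0.79 points (derived SE 0.69), and this was the only positive value.

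**Figure D2:**
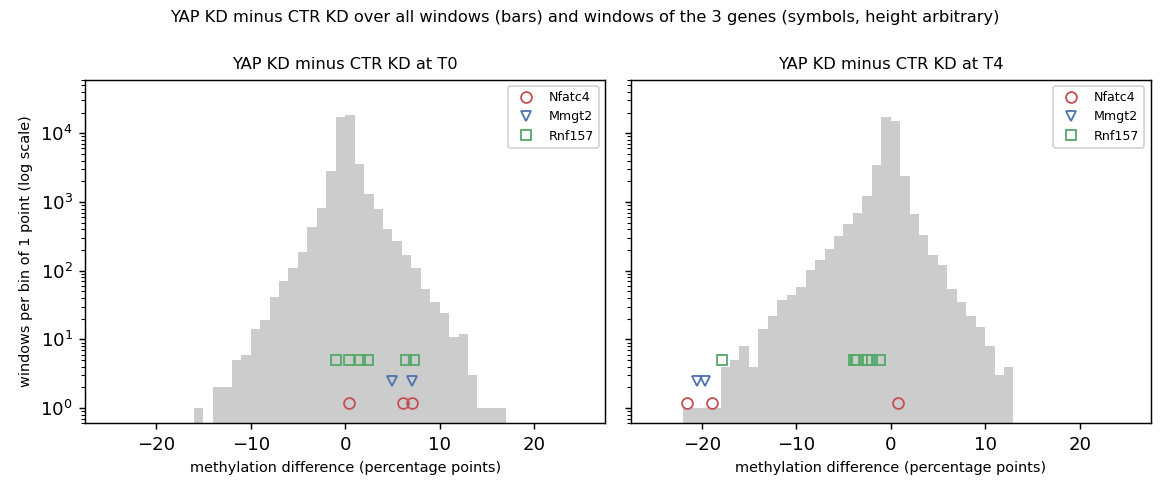
YAP KD minus CTR KD methylation difference (x axis, percentage points) over all windows at T0 and T4, as windows per bin of 1 point on a log scale (bars), with the windows of the 3 genes as symbols at arbitrary height. At T4 the 5 exon windows lie between -21.5 and -17.8 points at the lower end of the distribution, while at T0 the members lie between -0.997 and 7.24 points.

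The comparison of YAP KD with CTR KD cells at T0 shares no library with the contrast that picked the genes. It is not wholly independent of the choice, because Nfatc4 and Mmgt2 had been named earlier for a difference that also uses the T0 libraries. None of the 11 member windows in this table was a DMR, against 0.0676% of all windows with higher and 0.019% with lower methylation in YAP KD cells, while 7 had an unadjusted methylKit p under 0.05, as did 10.01% of all windows. Nfatc4 was higher in YAP KD cells at T0 by 7.10 points (derived SE 2.72, 95% interval 1.78 to 12.4, methylKit q = 0.264). Mmgt2 was higher by 7.07 points (derived SE 2.38, 95% interval 2.40 to 11.7, methylKit q = 0.176). Neither difference passed, and the sign was opposite to that at T4. The Rnf157 exon is not in the T0 table. The 11 members had a median of 4.93 points at T0, beside 0.0506 points over all windows. All 6 windows in the bodies of the genes that the T0 table lists were above 0, between 4.93 and 7.24 points, with q from 0.125 to 0.426. They come in 3 overlapping pairs and so amount to 3 loci. A difference of 4.93 points or more, the lowest of these 6 values, was seen in 1.51% of all windows at T0. Of coding exon windows more than 1 kb from a start site, 95.9% lay below it.

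Differentiation of CTR KD cells asks what happens to these exons when YAP is not reduced. This comparison shares the CTR KD T4 libraries with the contrast that picked the genes, so its calls are not independent of the choice. The leading Nfatc4 window gained 23.5 points in the authors' deposited table (derived SE 2.78, methylKit q = 3.02e-15), a higher value than in 99.97% of all windows. Its overlapping window gained 21.8 points (derived SE 2.38, methylKit q = 9.31e-18). At Mmgt2 the gains were 14.8 points (derived SE 2.44, methylKit q = 3.87e-08) and 13.1 points (derived SE 2.40, methylKit q = 1.2e-06). These 4 windows were DMRs among 13 listed, all gains, where 0.958% of all windows were gains and 2.21% losses. The coding exon windows more than 1 kb from a start site were gains in 4.31% and losses in 3.98% of cases. The coding exon window of Nfatc4 at 1869 bp from its start, with 20 CpGs, differed by -0.55 points (derived SE 0.86, methylKit q = 0.639) in this table, the single one that lists it.

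In YAP KD cells the exons of Mmgt2 and Rnf157 lost methylation and that of Nfatc4 passed in neither direction. The leading Nfatc4 window differed by -4.78 points (derived SE 2.71, methylKit q = 0.221) and its neighbour by -3.29 points (derived SE 2.29, methylKit q = 0.333). Mmgt2 lost methylation at both windows, with differences of -12.7 points (derived SE 2.48, methylKit q = 6.46e-06) and -12.6 points (derived SE 2.44, methylKit q = 4.64e-06). The RING exon of Rnf157 lost methylation, with a difference of -18.6 points (derived SE 3.20, methylKit q = 1.63e-07), lower than all but 0.706% of windows. These 3 DMRs were all losses, of 13 member windows listed, where 3.35% of all windows were losses and 0.505% gains. Of coding exon windows more than 1 kb from a start site, 5.80% were losses and 2.45% gains. This comparison also shares libraries with the contrast that picked the genes, those of YAP KD at T4. The difference between the courses of CTR KD and YAP KD cells was not tested, because it contains that contrast.

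The 4 differences place the groups of each exon on a common scale, although the tables hold no methylation level. With YAP KD at T4 set to 0, the Nfatc4 window stood at 4.78 points in YAP KD cells at T0, at 21.5 points in CTR KD cells at T4 and at -2.15 points in CTR KD cells at T0. CTR KD cells at T4 thus stood apart from the other groups, which lay within 7.10 points of each other. At Mmgt2 the order was YAP KD T4 at 0, CTR KD T0 at 5.61 points, YAP KD T0 at 12.7 points and CTR KD T4 at 20.5 points, so that YAP KD was the higher at T0, by a difference that did not pass, and the lower at T4. The knockdown difference moved by -28.6 points from T0 to T4 at Nfatc4 and by -27.5 points at Mmgt2, and this movement includes the T4 contrast that picked the genes. At Rnf157 YAP KD T0 stood at 18.6 points and CTR KD T4 at 17.8 points. These groups differed by 0.75 points, and YAP KD at T4 was the low one of the 3. Both tables that lack this window involve CTR KD cells at T0, so the course of the exon in CTR KD cells cannot be given here. At the leading windows the 2 routes through the tables to the CTR KD T0 value agree within 0.339 points at Nfatc4, and at Mmgt2 they coincide. At the overlapping windows the routes differ by 0.0606 points at Nfatc4 and by 1.13 points at Mmgt2.

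**Figure D3:**
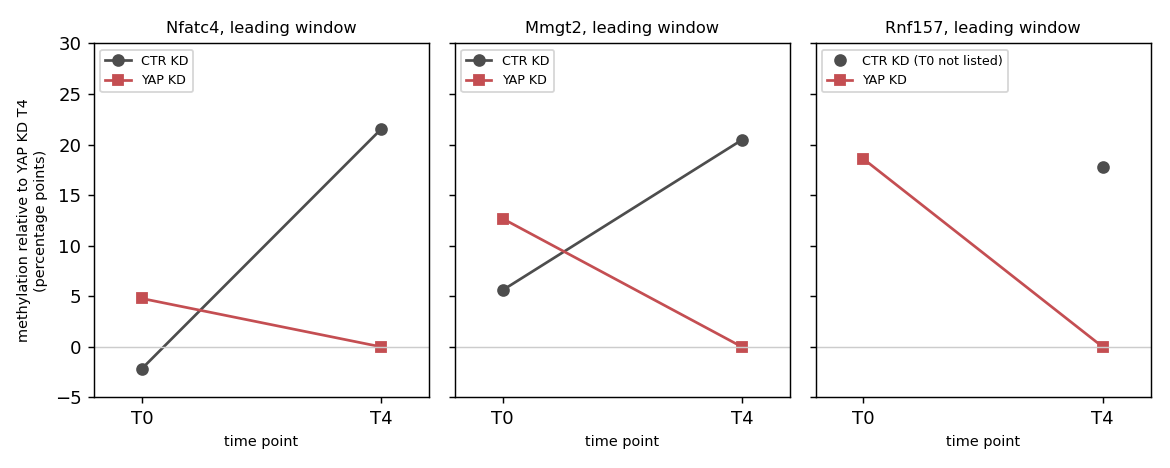
Methylation of the 4 groups at the leading window of each gene (y axis, percentage points relative to YAP KD at T4) at T0 and T4 (x axis), for CTR KD (grey circles) and YAP KD (red squares). CTR KD rises by 23.5 and 14.8 points at Nfatc4 and Mmgt2, YAP KD falls at Mmgt2 and Rnf157, and no error is drawn because derived SEs belong to single differences (2.38 to 3.48 points).

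The other windows of Rnf157 showed smaller differences. A pair of windows 29970 and 30095 bp into the gene lay in Gm11741, a pseudogene within an Rnf157 intron, where words of 31 bases had a median of 1 copy but a maximum of 8. YAP KD cells were higher there at T0 by 7.24 points (derived SE 2.26, methylKit q = 0.125) and 6.41 points (derived SE 2.19, methylKit q = 0.187). At T4 the differences were -3.61 and -3.88 points. With differentiation CTR KD cells differed by 6.65 points in the first of them (derived SE 2.15, methylKit q = 0.0152), which is under the minimum of 10 points, and by 5.42 points in the second (methylKit q = 0.0584). YAP KD cells differed by -2.20 and -3.05 points (methylKit q = 0.48 and 0.33). The signs at this pseudogene were those of Nfatc4 and Mmgt2 in all 4 comparisons, with no DMR. The differences were of like size at T0, where the first window had the highest value of all members, and smaller than at Nfatc4 and Mmgt2 in the T4 and CTR KD comparisons. The 4 comparisons depend on one another, so their signs are not 4 separate matches. In YAP KD differentiation the derived SEs were 2.13 and 2.12 points, so the signs there are uncertain. An intron window 6470 bp from the start differed by -3.64 points at T4 and by -2.92 points in YAP KD differentiation (methylKit q = 0.408), and another at 14595 bp by -1.62 points in CTR KD differentiation (methylKit q = 0.688).

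Past the end of Rnf157, 4 windows within 5 kb belong to its neighbour Foxj1, the master regulator of motile cilia, with 2 in its coding exon and 2 just before its start site. In YAP KD cells all 4 differed between T0 and T4 by between -4.37 and -2.15 points with differentiation at methylKit q between 0.00228 and 0.0475, a size under the DMR minimum. They form 2 overlapping pairs, and differences below 0 with q at most 0.05 at any size made up 12.7% of all windows in YAP KD and 9.57% in CTR KD differentiation. In CTR KD cells they differed by -1.28 to 0.95 points (methylKit q between 0.43 and 0.783). At T0 YAP KD and CTR KD differed there by -0.997 to 2.45 points and at T4 by -2.54 to -1.08 points. The nearest of these windows lay 18750 bp from the RING exon.

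The surroundings held no T4 difference of the size seen in the exons. A further 54 windows listed at T4 lay between 5 and 100 kb from a member gene, with differences from -2.94 to 3.61 points. Of these, 0 were DMRs by methylKit in either direction, where 0.292% of all windows were lower and 0.028% higher DMRs. With shares this small, 0 DMRs does not set the surroundings apart. An unadjusted methylKit p under 0.05 was seen in 1 of them (11.2% of all windows). The nearest T4 windows on either side of the Nfatc4 exon lay 6125 bp upstream (0.79 points) and 56000 bp downstream in Khnyn (3.61 points). For Mmgt2 they lay 50875 bp upstream in BC046404 (0.64 points) and 81375 bp downstream near Gm12282 (-1.15 points). How far the low methylation extended between these positions was not measured, since no window listed at T4 lies between them. At T0 none of 60 surrounding windows was a DMR (0.0676% of all windows were higher and 0.019% lower), and 7 had an unadjusted methylKit p under 0.05. With differentiation 1 of 56 surrounding windows in CTR KD and 2 of 50 in YAP KD cells were DMRs, all losses. Over all windows 2.21% and 3.35% were losses. The DMRs in the surroundings were at Prpsap1, a gene for a protein associated with phosphoribosyl pyrophosphate synthetase, 86030 bp from Rnf157. CTR KD cells lost methylation there, with a difference of -11.7 points (derived SE 2.20, methylKit q = 2.47e-06), and so did YAP KD cells, with -12.5 points at the same window (derived SE 2.42, methylKit q = 5.12e-06) and -13.3 points at the overlapping one (derived SE 2.54, methylKit q = 3.59e-06).

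**Figure D4:**
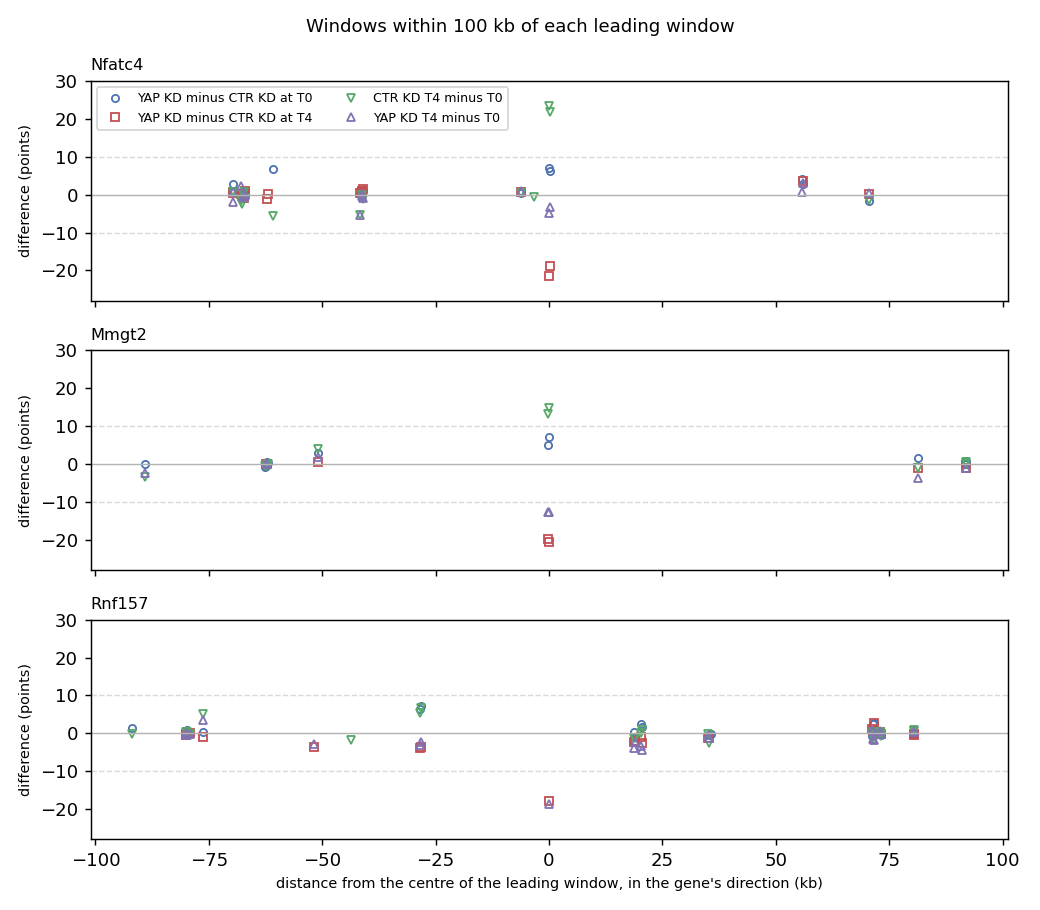
Methylation difference (y axis, percentage points) of all windows within 100 kb of each leading window (x axis, distance from its centre in kb, in the gene's direction) in the 4 comparisons. Besides the exon windows at the centre, no window passed 10 points (dashed lines) within this distance, and at T4 the others ranged from -3.88 to 3.61 points.

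Windows other than those of the 3 genes were then ranked by how close their 4 differences came to those of the leading windows. The measure was Euclidean distance in points among windows listed in all 4 tables, and the 3 genes were not compared with each other. For Nfatc4 the closest was an intron of the imprinted gene Impact at a distance of 12.2 points, with 18.8 points in CTR KD and -2.68 points in YAP KD differentiation. It was followed by a coding exon of the acetyltransferase gene Myst3 (12.8 points), an intron of the translation factor gene Eif4g3 (13.8 points), 4930555I21Rik (14.7 points) and 2510012J08Rik (15.5 points). Among these windows outside the 3 genes, none came within 12 points of the Nfatc4 pattern. The distance includes the T4 difference that picked the genes, and the Nfatc4 window had the lowest T4 value of all windows. The gap thus follows in part from the choice and is no separate trait of Nfatc4. For Mmgt2 the closest were the Mta3 intron (the gene encodes a NuRD complex subunit) at 6.07 points and the same Myst3 exon at 6.72 points, followed by Drosha, a microRNA processing enzyme (11.7 points), a window shared by Rpl13-ps1 and Usp32 (12.1 points) and one shared by 9630014M24Rik and Arhgap26 (12.6 points). The Rnf157 exon could be matched over 2 comparisons alone. Closest were a coding exon of the kinase gene Cdc42bpb (1.098 points), Mta3 (2.48 points), Pcdha11 (4.58 points), a window nearest to Gm14385 (4.65 points) and a coding exon of Add1 (4.74 points). In CTR KD differentiation the Cdc42bpb exon changed by 2.82 points and Mta3 by 12.1 points, so the matches do not settle what the Rnf157 exon did there.

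The relatives and pathways of the 3 genes were described by the same rule of windows. Over all windows an unadjusted methylKit p under 0.05 was seen in 10.01% at T0, 11.2% at T4, 23.1% in CTR KD and 24.4% in YAP KD differentiation. Gains made up 0.958% and losses 2.21% of all windows in CTR KD differentiation, and 0.505% and 3.35% in YAP KD differentiation. At T0, DMRs with higher methylation in YAP KD cells made up 0.0676% and those with lower methylation 0.019% of all windows. At T4 these shares were 0.028% and 0.292%. All these shares are the background for the counts of each list. Those at T0 and T4 are so small that a list without a DMR there says little. Of 29 NFAT, calcineurin and store-operated calcium entry genes 25 had windows. None of 77 windows was a DMR at T4 and none of 88 at T0, with 9 and 11 at an unadjusted methylKit p under 0.05, and their median difference at T4 was -0.249 points beside -0.101 points over all windows. In CTR KD differentiation 2 of 88 windows were gains and 3 were losses. In YAP KD differentiation 0 of 81 were gains and 4 were losses, and 20 had an unadjusted methylKit p under 0.05, a share close to that over all windows. Nfatc2 lost methylation in both, with -21.9 points in CTR KD (methylKit q = 8.94e-08) and -16.5 points in YAP KD cells (methylKit q = 1.2e-05) in an untranslated exon window. The overlapping window, also a loss in YAP KD cells, differed there by -24.4 points (methylKit q = 5.51e-09). The intron of Stim2, a calcium sensor of the endoplasmic reticulum, changed by -14.5 and -17.0 points (methylKit q = 9.97e-07 and 6.98e-09). Nfatc1, with a single window in an intron, changed by -12.1 points in CTR KD (methylKit q = 4.28e-05) and stood at a difference of 0.131 points in YAP KD cells, which did not pass. The 2 gains near Nfatc3, of 13.5 and 14.6 points, lay in its neighbour Esrp2. A window before the start of Orai2, a plasma membrane calcium channel, changed by -16.0 points in YAP KD cells (methylKit q = 1.19e-09).

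Among 28 magnesium transport and ER membrane complex genes 20 had windows, and Mmgt1 had none. At T0 and T4 0 of 83 and 0 of 73 windows were DMRs, with 8 and 11 at an unadjusted methylKit p under 0.05, and the medians were 0.00184 points at T0 and 0.0499 points at T4. With differentiation the DMRs were in an intron of Mrs2, the magnesium channel of mitochondria. It changed by -13.9 points in CTR KD (methylKit q = 9.91e-15) and -19.5 points at the same window in YAP KD cells (methylKit q = 1.6e-27), in 2 of 79 and 3 of 77 windows. Losses made up 2.21% of all windows in CTR KD and 3.35% in YAP KD differentiation. Of 23 genes for the Rnf157 relative Mgrn1, for Fe65 family proteins and for the anaphase-promoting complex 21 had windows. None of 98 windows at T0, 80 at T4 and 96 in CTR KD differentiation was a DMR, with 5, 7 and 13 at an unadjusted methylKit p under 0.05. For both of these lists the lack of DMRs at T0 and T4 says little, given the small shares over all windows. In YAP KD cells 2 of 84 windows lost methylation, with -13.5 and -10.6 points, both within 5 kb of Fzr1 but inside 4930404N11Rik and F630110N24Rik. Mgrn1 itself, with 7 windows at T4, ranged there from -1.32 to 0.806 points, and the list's T4 median was 0.0791 points. Nfat5 and Mmgt1 had no window in any table.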

How the data were processed

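Methylation was profiled in 8 libraries, 2 per group, prepared per the labels by SureSelectXT Methyl-Seq capture. According to the methods, the 2 samples of a group are separate experiments. Trim Galore, Bismark with Bowtie2, methylKit and the mm9 build are listed in the processing notes of the submitters. The authors left out positions with few reads and compared groups with methylKit over 250 bp windows starting every 125 bp. The deposited tables, 1 for each of the 4 comparisons, give for each window the p-value and q-value and the difference in percent methylation (percentage points). Depth per library is unknown, since the tables hold comparisons alone. Differences are T4 minus T0 or YAP KD minus CTR KD, a reading under which the 4 tables close within 0.5 points in 93.4% of 37980 shared windows.

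Windows were joined by position and annotated at their centre with GENCODE M1 and the NCBIM37 genome (mm9) in Python 3.11.15 with pandas 2.3.3 and scipy 1.17.1. Gene synonyms came from a RefSeq table of GRCm38.p6. The SE derivation was tested on simulated data with a single binomial read count per group. That simulation had no replicates and no spread between libraries, so it does not show whether the derived SEs and intervals cover such spread. Members, lists and tests were chosen with earlier results of these data known. Nfatc4 and Mmgt2 had also been named earlier for the difference between the 2 differentiation changes, which uses the T0 libraries, so T0 is separate from the T4 choice but not wholly independent. Named genes were all 3 members, genes with a start within 100 kb that held a DMR, the 5 most similar windows per gene and up to 4 DMR genes per list. Relatives without a DMR were named after their values were seen.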

Additional observations from a re-analysis of the deposited data

How the results depend on the processing

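At Nfatc4 and Mmgt2 the leading window differences stayed within 1 derived SE in all 8 cases when averaged over the overlapping windows. Each average includes the leading window and a window that shares bases with it, so this is a weak check. The Rnf157 exon has no overlapping window and was not checked in this way. Of 32 alternative counts of DMRs, 23 stayed within 1.5 times the reported count, and all of those at T0 remained at 0. With a minimum difference of 20 points there were 2 DMRs at T4 (against 5), 2 in CTR KD differentiation (against 4) and 0 in YAP KD differentiation (against 3). With no minimum difference the last became 7, the added 4 windows being those at Foxj1. Non-overlapping windows gave 2 or 3 DMRs at T4 and 2 in CTR KD differentiation, depending on the grid, and 1 in YAP KD differentiation on the first grid, where every other window is left out by construction. No paired analysis was possible because the tables hold no values per sample, and leaving out a replicate was not run for the same reason. Each call rests on at most 2 overlapping windows, and no table shows the depth or the spread between replicates behind it.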
